A study of Mus musculus with 10 samples.

Results

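Oligodendrocyte precursor genes were chosen by name, as 10 genes of oligodendrocyte precursors and newly formed oligodendrocytes, out of 35275 genes in the deposited expression table: Pdgfra, Cspg4, Gpr17, Vcan, C1ql1, Lhfpl3, Neu4, Enpp6, Olig1 and Olig2. The names matched 9 rows. No row used here carries the name Lhfpl3, so that gene was not analysed here. The 9 others passed the filter on low values, a mean of at least 0.5 FPKM (fragments scaled by gene length and library size), and were among 14497 genes tested. Motor cortex RNA was sequenced from C57BL/6 mice at postnatal day 22, with 5 mice carrying an astrocyte conditional knockout of membralin, the product of Tmem259 (KO), and 5 wild-type mice (WT). Neither the driver of the deletion nor the alleles of the WT mice could be taken from the labels. The question was which transcripts differ in whole cortex when membralin, a membrane protein of the endoplasmic reticulum, is deleted in astrocytes.

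Oligodendrocyte precursors, also called NG2 glia, divide and migrate through the cortex after birth and mature into the cells that make myelin. They respond to platelet-derived growth factor through Pdgfra, and lose Pdgfra and Cspg4 as they commit to the lineage. Gpr17, Neu4 and Enpp6 mark the committed and newly formed stages, while Olig1 and Olig2 are transcription factors used along the whole lineage. In whole tissue, fewer cells of a type and less RNA per cell cannot be told apart.

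The libraries held between 22968013 and 27567361 fragments in KO and between 22793058 and 28827871 in WT. Tmem259 measured 20.1, 18.5, 34.4, 16.9 and 26.2 FPKM in KO1 to KO5, against 25.5, 23.8, 25.01, 32.4 and 30.4 FPKM in WT1 to WT5. The library labelled KO3 was the highest of the 10, which goes against its label, and KO5 lay within the WT range. Over all libraries the log2 fold change of Tmem259 was -0.27 and did not pass (limma adjusted p = 0.275). Without the library labelled KO3 it was -0.42 (limma adjusted p = 0.0279). Leaving out the highest library lowers the KO mean by construction. A deletion in astrocytes leaves Tmem259 in the other cells of whole cortex, so these levels do not settle a label. The differences of the precursor genes are also given without the library labelled KO3. Of the genes tested 13.3% were called in limma at an adjusted p under 0.05, with 9.77% higher and 3.51% lower in KO. With median-of-ratios scaling 608 genes were higher and 945 lower, in place of 1417 and 509. The number called was 1926 with all libraries, 3763 without the library labelled KO3, and 2 without KO2, without KO4 or without WT1. Omp, a marker of olfactory neurons and the olfactory bulb, measured 5.92, 10.5, 7.95, 8.89 and 0.41 FPKM in KO1 to KO5, against 0.27, 0.26, 3.26, 2.95 and 0.23 FPKM in WT1 to WT5. Its level thus differed between libraries and partly along genotype. All 11 markers of cortical tissue were measured, Slc17a7, the vesicular glutamate transporter of cortical neurons, at 875 ± 91.0 FPKM in KO and 777 ± 38.7 FPKM in WT (SD, n = 5 each). The log2 fold changes of these markers were positive for 6, Slc17a7 among them, and negative for 5, with a median of 0.05.

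All 9 precursor genes were readily measured, and their order by mean level was the same in KO and WT. Olig1 stood highest, above 95.8% of the genes tested, at 78.8 ± 9.94 FPKM in KO and 88.9 ± 4.21 FPKM in WT (SD, n = 5 each, as for all means that follow). Gpr17, Pdgfra, Olig2, C1ql1, Cspg4, Enpp6 and Vcan followed, and Neu4 was lowest, above 29.1% of the genes tested. In KO libraries the ranges of Pdgfra and C1ql1, of Olig2 and C1ql1, and of Cspg4 and Enpp6 overlapped. Those of Enpp6, Vcan and Neu4 all overlapped with each other. In WT libraries those of Cspg4 and Enpp6 and of Vcan and Neu4 did. The fewest fragments behind a value were 243, for Neu4, where counting error alone is 6.42% of the value.

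**Figure D1:**
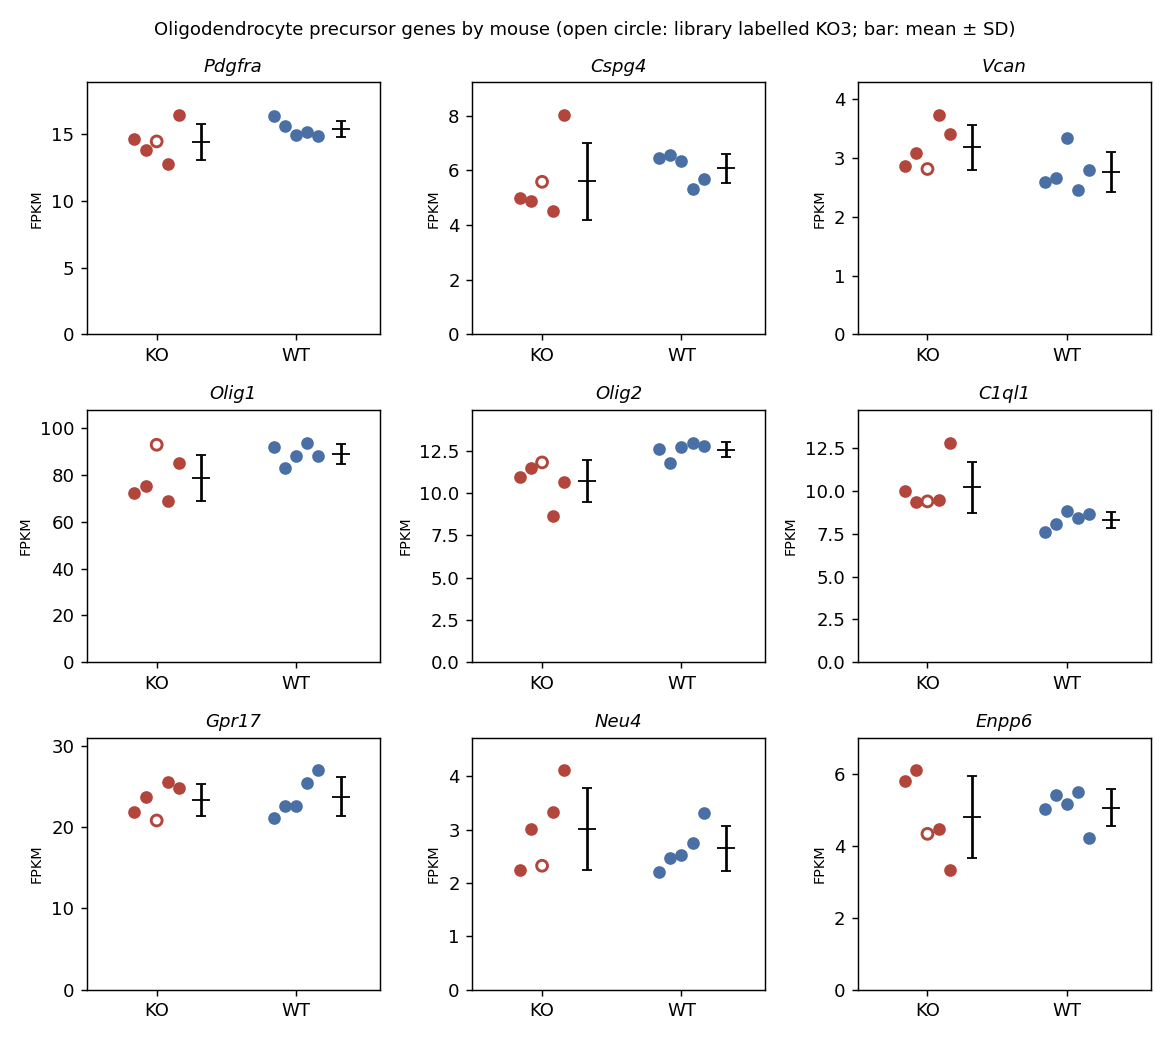
FPKM of the 9 precursor genes (vertical axes, each from 0) in the 5 KO and 5 WT mice, 1 point per library; the open circle is the library labelled KO3, and bars are mean ± SD. C1ql1 is the gene whose 5 KO values, 9.37 to 12.8 FPKM, all lie above the WT values, 7.61 to 8.82 FPKM.

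None of the 9 genes was called in KO against WT in limma, nor by limma voom on recovered fragments, and 3 had an unadjusted p under 0.05, a threshold that 32.8% of all genes tested met. Of the 9 fold changes 3 were positive and 6 negative, with a median of -0.08 on the log2(FPKM + 1) scale, against 0.08 over all genes tested. Values on that scale understate the change of low genes. When the library labelled KO3 was left out, 3 of 9 had an adjusted p under 0.05, C1ql1 higher and Olig1 and Olig2 lower, where 26.0% of all genes tested were called, 19.6% higher and 6.36% lower. The same 3 genes were those with an unadjusted p under 0.05 there, against 39.4% of all genes tested. With the mean level of olfactory bulb markers (the bulb score) as a covariate over all 10 libraries no gene of the table was called. Then 3 of 9 precursor genes, C1ql1, Olig2 and Enpp6, had an unadjusted p under 0.05, as did 18.7% of all genes tested.

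**Figure D2:**
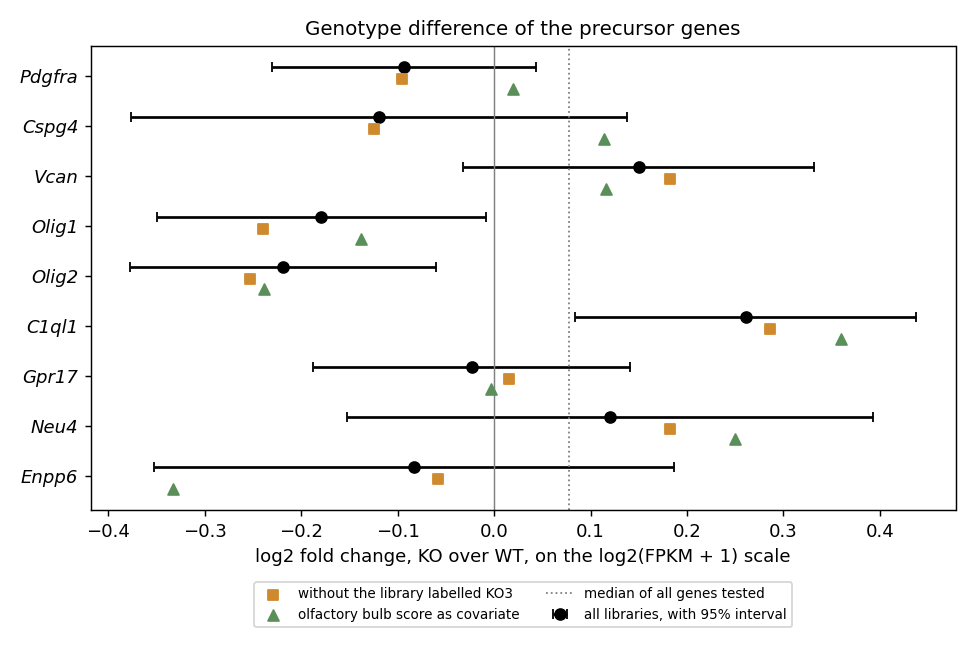
Log2 fold change of KO over WT for each precursor gene (horizontal axis). Circles are the fit with all libraries with its 95% interval, squares the fit without the library labelled KO3, triangles the fit with the bulb score as covariate, and the dotted line is the median of all genes tested, 0.08. C1ql1, Vcan and Neu4 lie right of 0, and Olig1, Olig2 and Enpp6 left of it, in all 3 fits. Pdgfra and Cspg4 change side with the covariate, and Gpr17 without the library labelled KO3.

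Pdgfra, the receptor through which platelet-derived growth factor drives precursor division and survival, lies on chromosome 5 (75152291 to 75198204, plus strand, mm10). It measured 14.6, 13.8, 14.4, 12.7 and 16.4 FPKM in KO1 to KO5, against 16.3, 15.6, 14.9, 15.2 and 14.8 FPKM in WT1 to WT5. In KO1 to KO4 it was below every WT library, and in KO5 it was just above the highest one. The means were 14.4 ± 1.35 FPKM in KO and 15.4 ± 0.62 FPKM in WT. The log2 fold change was -0.09 (SE 0.06, 95% interval -0.23 to 0.04, limma adjusted p = 0.323). The interval covers a KO level between 0.852 and 1.03 times that of WT on that scale. Its log2 fold change was -0.10 when the library labelled KO3 was left out, and 0.02 with the bulb score as a covariate.

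Cspg4, the NG2 proteoglycan of the precursor surface, which pericytes also carry, lies on chromosome 9 (56865104 to 56899870, plus strand, mm10). It measured 4.99, 4.88, 5.59, 4.52 and 8.02 FPKM in KO1 to KO5, against 6.45, 6.55, 6.34, 5.32 and 5.69 FPKM in WT1 to WT5. KO1, KO2 and KO4 were below every WT library and KO5 was above every one, so the KO libraries spread to both sides of WT. The coefficient of variation was 25.1% in KO and 8.84% in WT, where counting error is at most 3.36%. The log2 fold change was -0.12 (95% interval -0.38 to 0.14, limma adjusted p = 0.507). It stayed at -0.12 when the library labelled KO3 was left out, and was 0.11 with the bulb score as a covariate.

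Vcan, which encodes the matrix proteoglycan versican secreted by precursors and other cells, lies on chromosome 13 (89655312 to 89742509, minus strand, mm10). It measured 2.87, 3.09, 2.82, 3.73 and 3.42 FPKM in KO1 to KO5, against 2.59, 2.67, 3.34, 2.45 and 2.80 FPKM in WT1 to WT5. KO4 and KO5 exceeded every WT library and the other KO libraries lay within the WT range. Its log2 fold change of 0.15 did not pass (95% interval -0.03 to 0.33, limma adjusted p = 0.232), nor did the 0.18 obtained when the library labelled KO3 was left out (adjusted p = 0.141 in limma).

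Pdgfra and Cspg4 are also expressed outside the lineage, by meningeal fibroblasts and pericytes. Of 10 meningeal fibroblast genes 6 rose in KO, where 9.77% of all genes tested were called higher: Aldh1a2, Slc22a6, Ogn, Fmod, Lum and Col3a1. Their list had a median log2 fold change of 0.57 and a summed level of 67.4 to 122 FPKM over the KO libraries and 56.3 to 77.8 FPKM over the WT libraries. Of 9 pericyte and mural genes Anpep rose (log2 fold change 0.39, limma adjusted p = 0.0258), while Tagln and Rgs5, those with the next lowest p, did not pass (limma adjusted p = 0.134 and 0.178). The summed level of that list was 89.1 to 123 FPKM in KO, highest in KO5, and 80.6 to 93.0 FPKM in WT. KO5 was thus highest for this list as for Pdgfra and Cspg4. KO4 was above every WT library for this list, at 97.6 FPKM, but lowest of all 10 libraries for both genes. The part of these cells in the values of Pdgfra and Cspg4 was not tested.

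Olig1 and Olig2, the paired transcription factors of the lineage, lie on the plus strand of chromosome 16 (91269772 to 91271933 and 91225550 to 91228677, mm10). Olig2 measured 10.97, 11.5, 11.8, 8.66 and 10.6 FPKM in KO1 to KO5, against 12.6, 11.8, 12.7, 12.97 and 12.8 FPKM in WT1 to WT5. The library labelled KO3 was level with the lowest WT library and the other 4 KO libraries lay below it. The means were 10.7 ± 1.23 FPKM in KO and 12.6 ± 0.46 FPKM in WT (log2 fold change -0.22, SE 0.07, 95% interval -0.38 to -0.06), which did not pass in limma (adjusted p = 0.0647). An exact two-sided permutation of the mice gave p = 0.0159. The 4 other KO libraries averaged 10.4 ± 1.23 FPKM (SD over 4), with a log2 fold change of -0.25 (limma adjusted p = 0.0266) when the library labelled KO3 was left out. With median-of-ratios scaling of all libraries it was -0.31 (limma adjusted p = 0.0374). That scaling moved the median of all genes tested from 0.08 to -0.002.

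Olig1 measured 72.3, 75.3, 93.0, 68.7 and 85.0 FPKM in KO1 to KO5, against 91.9, 82.9, 88.2, 93.8 and 88.0 FPKM in WT1 to WT5. KO1, KO2 and KO4 were below every WT library, KO5 lay within their range and the library labelled KO3 lay near its top. The difference did not pass (log2 fold change -0.18, SE 0.08, 95% interval -0.35 to -0.0085, adjusted p = 0.136 in limma), and the exact two-sided permutation gave p = 0.0873. The 4 other KO libraries averaged 75.3 ± 6.98 FPKM (SD over 4), with a log2 fold change of -0.24 (limma adjusted p = 0.0214) when the library labelled KO3 was left out. That library holds the highest KO value of both genes, so leaving it out lowers the KO means by construction.

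Promoter entries from RefSeq (GRCm38.p6, the assembly of mm10) matched 7 of the 10 names. Stretches before the earliest annotated transcript start are shown for Pdgfra and Cspg4, the pair that varied most closely together, and for Olig2. Olig1 had no entry. They cover chr5:75152001-75152250, chr9:56864854-56865032 and chr16:91225300-91225456, all on the plus strand. Capitals mark the E-box CANNTG, the class of site that bHLH factors such as Olig1 and Olig2 recognise.
Pdgfra: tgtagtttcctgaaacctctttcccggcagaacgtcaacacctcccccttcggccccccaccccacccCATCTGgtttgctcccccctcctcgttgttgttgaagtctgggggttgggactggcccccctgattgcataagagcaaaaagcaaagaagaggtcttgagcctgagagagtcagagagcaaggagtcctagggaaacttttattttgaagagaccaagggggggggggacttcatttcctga
Cspg4: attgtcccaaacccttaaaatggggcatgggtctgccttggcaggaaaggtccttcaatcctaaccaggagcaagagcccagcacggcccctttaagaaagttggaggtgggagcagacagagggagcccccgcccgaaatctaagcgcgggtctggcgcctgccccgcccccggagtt
Olig2: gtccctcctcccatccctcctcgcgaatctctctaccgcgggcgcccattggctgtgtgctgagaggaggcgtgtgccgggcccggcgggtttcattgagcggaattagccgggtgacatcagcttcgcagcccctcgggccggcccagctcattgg
Pdgfra has 1 match in the 250 bases before its RefSeq start, at position -182 from it, and Cspg4 and Olig2 have 0 in theirs. On either strand CANNTG occurs in 66.2% of all 32851 such windows, CAGCTG, which it includes, in 13% and CATATG, which it also includes, in 3.46%. Neither of the specific forms occurs in the windows of these 3 genes. Of the other members with an entry, Vcan has 1 match at -179, Neu4 1 at -103, Enpp6 0 and Lhfpl3 2, both of them CAGCTG. A match is a description of letters only.

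C1ql1, a secreted protein related to complement C1q that precursors express in cortex, lies on chromosome 11 (102939264 to 102946688, minus strand, mm10). It measured 9.998, 9.37, 9.40, 9.50 and 12.8 FPKM in KO1 to KO5, against 7.61, 8.05, 8.82, 8.45 and 8.65 FPKM in WT1 to WT5. The groups did not overlap, which held for 1 of the 9 precursor genes and for 7.55% of all genes tested, 5.70% with KO higher. Its means were 10.2 ± 1.48 FPKM in KO and 8.32 ± 0.49 FPKM in WT. The log2 fold change was 0.26 (SE 0.08, 95% interval 0.08 to 0.44), with limma adjusted p = 0.0523, just over the threshold, and an exact two-sided permutation p of 0.00794, the smallest that 5 against 5 allows. Part of the size came with KO5, since the value was 0.18 when KO5 was left out (adjusted p = 0.0683 in limma). Leaving out the library labelled KO3 gave 0.29 (limma adjusted p = 0.0307), with Y-linked transcripts as a covariate 0.26 (limma adjusted p = 0.0445), and with median-of-ratios scaling 0.17 (limma adjusted p = 0.189). The bulb score as a covariate gave 0.36 (adjusted p = 0.160 in limma), and among the 4 KO and 2 WT libraries with Omp of at least 1 FPKM it was 0.13 (limma adjusted p = 0.418).

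Gpr17, a receptor of committed precursors that holds back their maturation, lies on chromosome 18 (31942997 to 31949636, minus strand, mm10). It measured 21.8, 23.7, 20.8, 25.5 and 24.8 FPKM in KO1 to KO5, against 21.1, 22.6, 22.6, 25.4 and 27.0 FPKM in WT1 to WT5. The groups covered nearly the same range, and the difference did not pass (log2 fold change -0.02, 95% interval -0.19 to 0.14, limma adjusted p = 0.858). The sign of this value changed when the library labelled KO3 (0.01), WT4 or WT5 was left out. The gene overlaps Lims2 on the opposite strand, and strand marking by the library kit is not stated, so reads from their shared stretch cannot be told apart.

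Neu4, a sialidase that trims sialic acid from glycans, lies on chromosome 1 (94020451 to 94028334, plus strand, mm10). It measured 2.25, 3.01, 2.32, 3.33 and 4.11 FPKM in KO1 to KO5, against 2.21, 2.46, 2.52, 2.75 and 3.31 FPKM in WT1 to WT5. KO5 stood highest and KO4 was level with the highest WT library, while KO1 and the library labelled KO3 were near the bottom of the WT range. For Neu4 the log2 fold change was 0.12 (95% interval -0.15 to 0.39, limma adjusted p = 0.535), and 0.18 when the library labelled KO3 was left out (adjusted p = 0.305 in limma).

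Enpp6, a choline-specific phosphodiesterase of newly formed oligodendrocytes, lies on chromosome 8 (46986925 to 47094895, plus strand, mm10). It measured 5.79, 6.09, 4.33, 4.45 and 3.31 FPKM in KO1 to KO5, against 5.01, 5.405, 5.16, 5.50 and 4.21 FPKM in WT1 to WT5. KO1 and KO2 lay above every WT library and KO5 below every one. The log2 fold change was -0.08 (95% interval -0.35 to 0.19, limma adjusted p = 0.675), and -0.33 with the bulb score as a covariate (limma adjusted p = 0.251, unadjusted p = 0.0427). Leaving out the library labelled KO3 gave -0.06. The 2 enzymes of the newly formed stage thus went to opposite ends in KO5, where Neu4 was highest and Enpp6 lowest of all 10 libraries.

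The log2 ratio of mean Enpp6 and Neu4 to mean Pdgfra and Cspg4, a measure of the later against the earlier stage within a library, was -1.29, -1.03, -1.59, -1.15 and -1.72 in KO1 to KO5, against -1.66, -1.50, -1.47, -1.31 and -1.45 in WT1 to WT5. Its means were -1.36 ± 0.29 in KO and -1.48 ± 0.12 in WT (SD, n = 5 each). The difference of 0.12 was smaller than the SD between KO libraries, and so was the 0.18 obtained when the library labelled KO3 was left out. With Enpp6 over Pdgfra alone the difference was -0.01. With Neu4 over Pdgfra alone it was 0.26, below the SD of 0.36 between KO libraries. The later genes thus did not give the same difference.

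**Figure D3:**
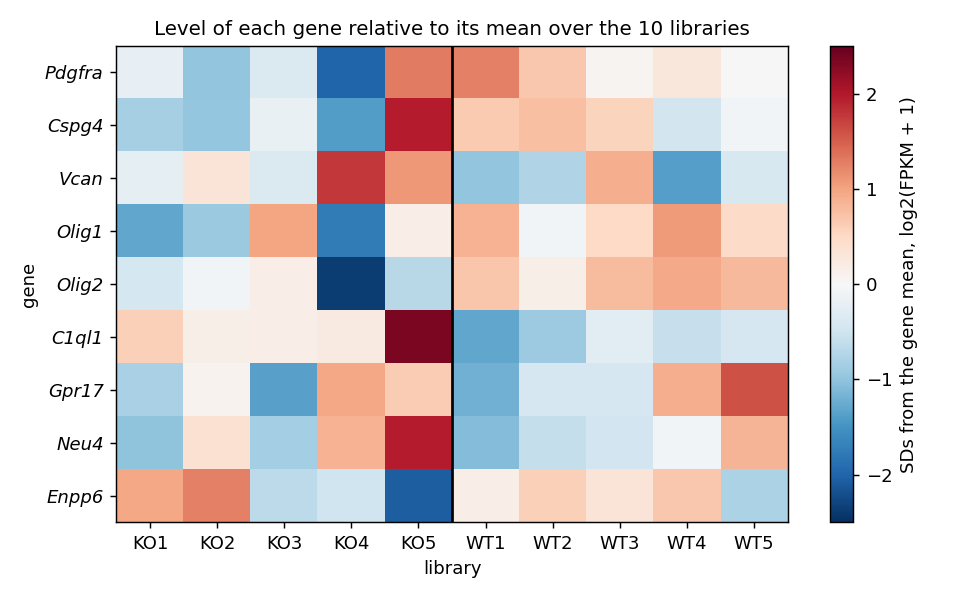
Level of each precursor gene (rows) in each library (columns, KO left of the line and WT right of it), as SDs of log2(FPKM + 1) from the gene's mean over the 10 libraries. KO4 is lowest for Pdgfra, Cspg4, Olig1 and Olig2 and highest for Vcan, and KO5 is highest for Pdgfra, Cspg4, C1ql1 and Neu4 and lowest for Enpp6.

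The precursor genes did not share 1 profile across mice. Among the 36 pairs of the 9 genes, 15 had a positive and 21 a negative correlation of log2(FPKM + 1) over the 10 libraries. Pdgfra and Cspg4 varied most closely together (Pearson r = 0.866, permutation p = 0.00139, adjusted p = 0.05 over the 36 pairs; Spearman rho = 0.891, permutation p = 0.00128, adjusted p = 0.0461), with r = 0.778 without KO4 and KO5. Gpr17 and Neu4 gave r = 0.795 (permutation p = 0.00624, adjusted p = 0.0749) and rho = 0.855 (permutation p = 0.00277, adjusted p = 0.0499), and r = 0.787 without the library labelled KO3 and WT5. Olig1 and Olig2 gave r = 0.804 (permutation p = 0.00346, adjusted p = 0.0623) and rho = 0.806 (permutation p = 0.00688, adjusted p = 0.0826), and r = 0.550 without KO1 and KO4. Among negative pairs, Vcan and Olig2 had r = -0.738 (permutation p = 0.0106, adjusted p = 0.0953) and rho = -0.721 (permutation p = 0.0240, adjusted p = 0.162), but r = -0.233 without KO4 and KO5, so that relation rests on those libraries. No batch is named in the labels. Y-linked transcripts summed to 25.38 and 24.05 FPKM in KO4 and KO5, to 23.25 and 20.21 FPKM in WT4 and WT5, and to at most 0.0141 FPKM elsewhere. KO4, KO5, WT4 and WT5 held the highest Gpr17 values, and KO5, KO4 and WT5 the highest of Neu4. After subtraction of each genotype's mean, r was 0.862 for Pdgfra and Cspg4, 0.865 for Gpr17 and Neu4, and 0.669 for Olig1 and Olig2. Subtraction leaves the split by Y-linked transcripts in place, and its part in the correlations was not tested.

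**Figure D4:**
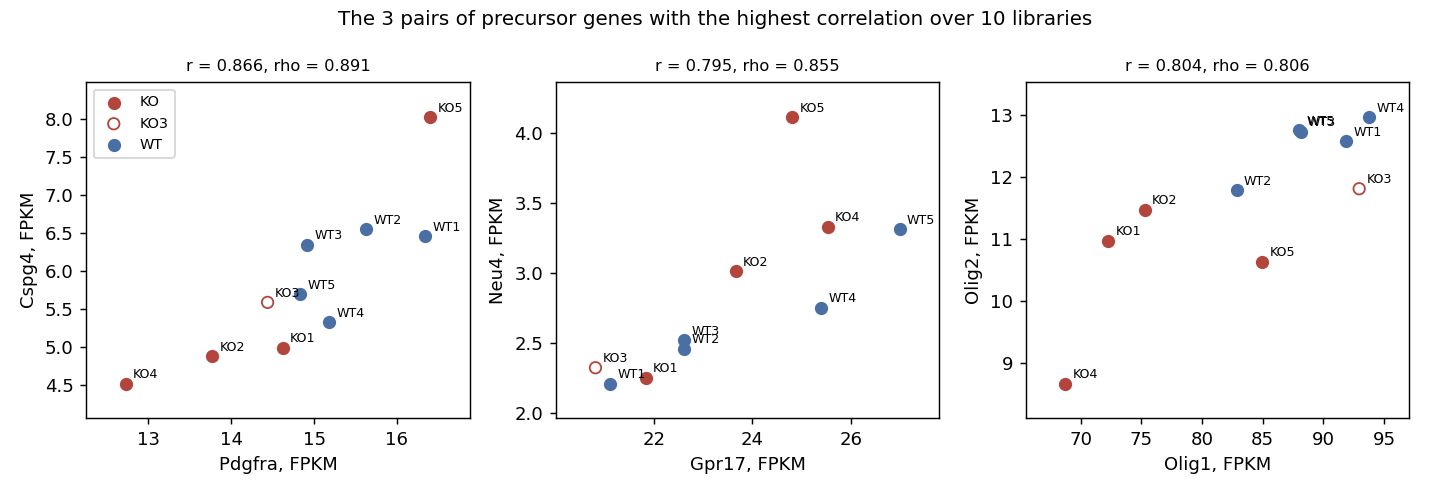
FPKM of 3 pairs of precursor genes, 1 point per library, KO in red (open circle: the library labelled KO3) and WT in blue. KO5 lies at the upper right of Pdgfra with Cspg4 (16.4 and 8.02 FPKM) and KO4 at the lower left of Olig1 with Olig2 (68.7 and 8.66 FPKM).

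Over all genes tested, those with the profile most like a member's were found by the mean absolute difference of standardised log2(FPKM + 1) over the 10 libraries, where 0 is identity. The closest to C1ql1 was Cdkn1a, an inhibitor of cyclin-dependent kinases, at 0.13, with Srm and Lat2 next. For Pdgfra they were Gm15609, Cldn26 and Zfpm1 at 0.28 to 0.32, and for Cspg4 Lzts1, Lrrc32 and Pex6 at 0.24 to 0.34. The list for Olig1 was Kcnj16, Pygm and Tmem259, the last at 0.32, and that for Olig2 was Cdc42bpb, 1810021B22Rik and Zfp536, a zinc finger protein of the lineage list below, at 0.33. Rpl36 was among the 3 closest to both Neu4 and Gpr17. These are descriptions of 10 values each.

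Among other genes of these stages none was called, where 13.3% of all genes tested were. Of 14 other precursor genes none passed in limma, with 3 at an unadjusted p under 0.05, and the median log2 fold change was -0.0044. Megf11 (0.41, limma adjusted p = 0.0704), Nkx2-2, a transcription factor of the lineage (0.26, limma adjusted p = 0.0768), and Cacng4 (0.24, limma adjusted p = 0.118) had the lowest p. With the library labelled KO3 left out 2 of the 14 rose, Megf11 (0.53, limma adjusted p = 0.00779) and Nkx2-2 (0.29, limma adjusted p = 0.0432). In that fit 19.6% of all genes tested were called higher. Of 12 other genes of newly formed oligodendrocytes none passed in limma, with 1 at an unadjusted p under 0.05, and the median was -0.03. Their lowest adjusted p was 0.115, for Tcf7l2, followed by Rras2 and Fyn, and none of the 12 passed with the library labelled KO3 left out.

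Of 12 regulators of transcription in the lineage that were tested 1 was called, where 13.3% of all genes tested were. Sox2, a factor of neural progenitors and astrocytes, rose. It averaged 17.5 ± 0.85 FPKM in KO and 14.01 ± 1.08 FPKM in WT (log2 fold change 0.30, SE 0.06, limma adjusted p = 0.0186). A value of 0.33 was obtained when the library labelled KO3 was left out (adjusted p = 0.00353 in limma). Myrf, the factor that drives myelin genes, averaged 12.5 ± 1.32 FPKM in KO and 14.7 ± 1.05 FPKM in WT and did not pass (log2 fold change -0.22, limma adjusted p = 0.0643), but did so without the library labelled KO3 (-0.25, limma adjusted p = 0.0308). Sox9, which astrocytes express as well, had a log2 fold change of 0.33 (limma adjusted p = 0.0698) and likewise passed when that library was left out (0.38, limma adjusted p = 0.0331). Sox10, the factor common to the whole lineage, did not pass with it (-0.08, limma adjusted p = 0.627) or when it was left out (-0.13, limma adjusted p = 0.385).

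Of 11 signals to precursors that were tested 1 passed, where 13.3% of all genes tested were called. This was Pdgfa, the ligand of Pdgfra made by neurons and astrocytes, and it fell. It measured 19.0, 18.1, 19.4, 15.2 and 19.7 FPKM in KO1 to KO5, against 24.9, 23.1, 19.4, 22.0 and 21.9 FPKM in WT1 to WT5. KO1 to KO4 lay below every WT library and KO5 just above WT3, the lowest one. The log2 fold change was -0.27 (SE 0.08, limma adjusted p = 0.0414). It was -0.30 (adjusted p = 0.0237 in limma) when the library labelled KO3 was left out, but -0.12 with the bulb score as a covariate (adjusted p = 0.498 in limma). Tgfb1, a cytokine made largely by microglia, at 0.52 (limma adjusted p = 0.0519), and Cxcl12, a chemokine, at -0.32 (limma adjusted p = 0.0543), came next and did not pass. Both passed when the library labelled KO3 was left out, Tgfb1 at 0.63 (limma adjusted p = 0.0112) and Cxcl12 at -0.40 (limma adjusted p = 0.00787). In that fit 1 of the 11 signals rose and 3 fell, the others being Pdgfa and Lingo1, an inhibitor of differentiation. Of all genes tested 19.6% were called higher there and 6.36% lower.

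Genes of the later stage had a lower median. Of 17 myelin and mature oligodendrocyte genes Mal fell (log2 fold change -0.30, limma adjusted p = 0.0372), where 3.51% of all genes tested were called lower. Negative values were found for 14 of the 17. Their median was -0.22, against -0.08 for the 9 precursor genes and 0.08 for all genes tested. Mog and Mobp were next (limma adjusted p = 0.0605 each). With KO1, KO2, KO4 and KO5 alone as KO libraries, 7 of the 17 fell, where 6.36% of all genes tested were called lower. The median was then -0.28, against -0.06 for the 9 precursor genes and 0.09 for all genes tested. The summed level of the myelin list was 1664 to 2317 FPKM in KO, highest in the library labelled KO3, and 2114 to 2620 FPKM in WT. The difference between these lists was not tested.

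Of 12 cell division genes 8 passed the filter on low values. Of these 5 rose, Top2a, Pcna, Mcm2, Ccna2 and Mki67, where 9.77% of all genes tested were called higher. Top2a, the topoisomerase of dividing cells, averaged 1.38 ± 0.35 FPKM in KO and 0.73 ± 0.09 FPKM in WT (log2 fold change 0.45, limma adjusted p = 0.0243). Mki67, a marker of cycling cells, measured 1.14, 0.97, 0.68, 1.04 and 1.28 FPKM in KO1 to KO5, against 0.55, 0.70, 0.74, 0.66 and 0.42 FPKM in WT1 to WT5. In the library labelled KO3 it lay within the WT range. Precursors are among the dividing cells of this age. Of 9 olfactory bulb markers that passed the filter 3 rose in KO as well, and all 9 had a positive log2 fold change. The part of bulb tissue in the values of the division genes was not tested. With the bulb score as a covariate the log2 fold change was 0.47 for Top2a and 0.32 for Mki67, neither called.

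Lists of other cells and regions are set beside these results, where 9.77% of all genes tested were called higher in KO. Of 9 olfactory bulb markers tested Th, Pbx3 and Sp8 rose. All 9 had a positive log2 fold change, with a median of 1.12. All 9 also had an unadjusted p under 0.05 in limma, as did 32.8% of all genes tested. The summed level of the list was 21.8 to 87.2 FPKM in KO and 7.48 to 42.6 FPKM in WT, with none of the markers at 0 in a whole group. All 8 reactive astrocyte genes tested rose, among them Gfap, which averaged 427 ± 204 FPKM in KO and 97.9 ± 14.8 FPKM in WT. For the library labelled KO3 the sum of the reactive list was 137 FPKM, inside the 103 to 144 FPKM of WT, while KO1, KO2, KO4 and KO5 had 531 to 847 FPKM. Among the cortical markers Gad1 and Aqp4 rose. When the library labelled KO3 was left out, 9 of the 10 meningeal, 2 of the 9 pericyte, 5 of the 8 division, 3 of the 9 bulb and all 8 reactive genes rose. In that fit 19.6% of all genes tested were called higher, and the pericyte count is near that share. With the bulb score as a covariate no gene of any of these 11 lists was called, nor was one without KO2, without KO4 or without WT1. The log2 fold change with the covariate was 1.88 for Gfap, 2.05 for C4b and 0.91 for Cd44, against 1.91, 2.13 and 0.87 without it. It was 0.60 for Th and 0.18 for Sp8, against 1.71 and 1.30 without it. With that covariate and the library labelled KO3 left out, 1434 genes of the table were called, 26 of the 121 in these lists and none of the 9 precursor genes, of which 2 had an unadjusted p under 0.05.

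**Figure D5:**
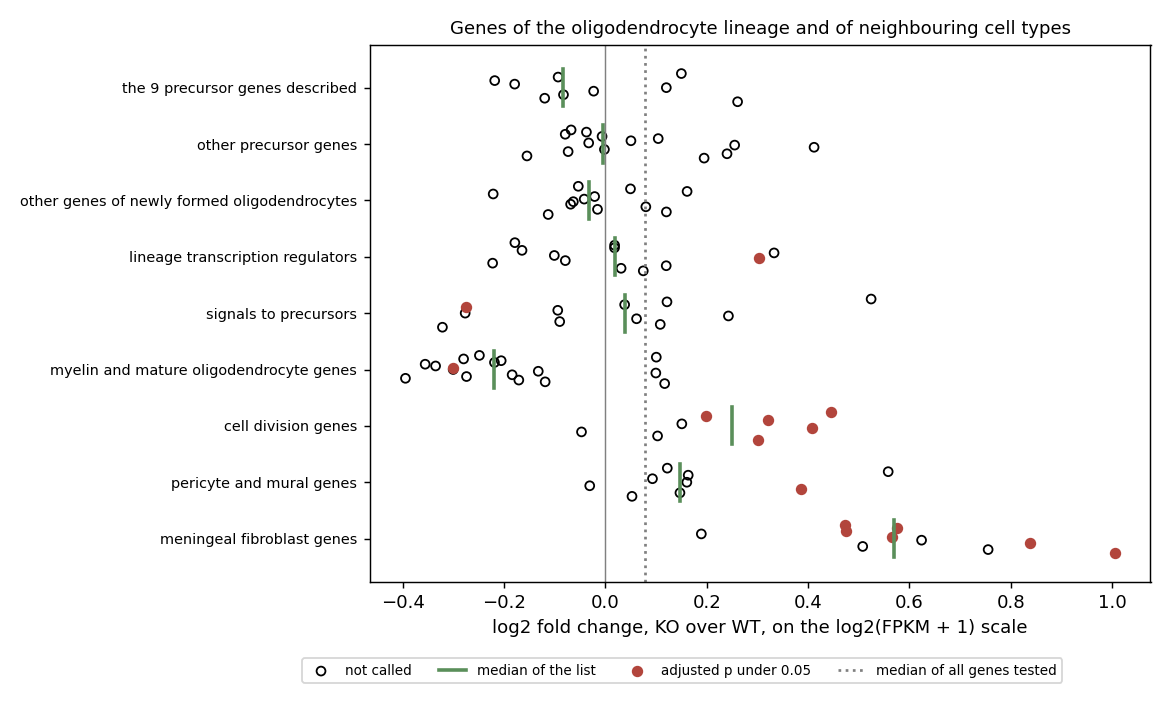
Log2 fold change of KO over WT (horizontal axis) for each gene of 9 lists (rows), with filled points for an adjusted p under 0.05, green bars for the median of a list and a dotted line for the median of all genes tested. The medians are -0.08 for the precursor genes, -0.22 for the myelin genes, 0.25 for the cell division genes and 0.57 for the meningeal fibroblast genes.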

How the data were processed

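Motor cortex RNA was made into NEBNext Ultra libraries (labels' protocols). DESeq2 and the build mm10 appear in the submitters' processing notes without a role. For the aligner and the counter, nothing is given in the sources used here. The authors deposited FPKM per gene and library. FPKM times the deposited gene length gave whole fragments within 0.02 in 100% of the values above 0 that were examined (up to 5000 fragments), from which the totals per library were taken. All 45 library pairs differed beyond sampling noise (chi-square per gene at least 7.22). The samples are described as biological repeats and no more is said of the mice, so p-values measure the spread between these samples.

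The genotypes were compared on log2(FPKM + 1), with limma 3.58.1 (R 4.3.3), a variance trend, genotype alone in the model, and Benjamini-Hochberg adjustment over all 14497 genes. Tests were two-sided, and called means an adjusted p under 0.05. Single genes were also tested by exact permutation of mean FPKM, and pairs of genes by 100000 permutations with seed 1. Simulated data with known changes were used to check this model.

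The members and the 11 other lists were chosen with earlier results of these data known. The text names all members, the called genes of each list (of 8 reactive genes Gfap, C4b and Cd44), up to 3 with the lowest p where fewer were called, the 3 nearest profiles of members, and Sox10, Slc17a7 and Lingo1 were named after their values were seen. Other pseudocounts, filters, scalings, covariates, a replicate block and fits without 1 library were also run; the voom fit and the olfactory bulb score without the library labelled KO3 were chosen after seeing the data. A called gene of these lists is not reported here.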

Additional observations from a re-analysis of the deposited data

Results flagged for a closer look

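Of 108 groups of 5 libraries examined, 3 held a library far from the other 4, where chance gives about 1 in 20. C1ql1 was 12.83 FPKM in KO5, against 9.37 to 9.998 FPKM in the other KO libraries. Tagln, a smooth muscle gene, was 16.2 FPKM in KO5, the highest of KO. Tcf7l2, of the newly formed stage, was 2.548 FPKM in WT4, the highest of WT.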

How the results depend on the processing

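The count of called precursor genes stayed at 0 except with median-of-ratios scaling (1, Olig2), with Y-linked transcripts as a covariate (1, C1ql1) and over the fits that leave out 1 library, where it ranged from 0 to 3. Over all genes the count was 465 with no filter, 0 with the bulb score as a covariate (1434 with the library labelled KO3 also left out) and 0 in the libraries with Omp of at least 1 FPKM, where 1908 genes had an unadjusted p under 0.05. It ranged from 2 to 3763 when 1 library was left out, with 576 without KO1, 987 without KO5, 1186 without WT2, 1229 without WT3, 1263 without WT4 and 847 without WT5. Over the 121 genes tested in the other lists 29 were called, 9 with no filter, 0 with the score, 0 in the libraries with Omp, and 0 to 47 when 1 library was left out. With median-of-ratios scaling 608 genes were higher and 945 lower, against 1417 and 509. That scaling divides each library by 1 factor and so moves all genes together. The median log2 fold change of all genes tested was -0.002 with it, against 0.08 in the main fit. The cause of the other shifts was not tested, other than that no filter adds genes to the adjustment.

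Signs changed for 5 genes. With the bulb score the log2 fold change was 0.11 for Cspg4, 0.019 for Pdgfra and -0.069 for Fyn, and with the library labelled KO3 also left out it was 0.10, 0.015 and -0.062, and 0.027 for Gpr17. With median-of-ratios scaling Fyn was -0.017. When 1 library was left out Gpr17 ranged from -0.062 to 0.022 and Enpp6 from -0.16 to 0.018. The ratio of the later to the earlier stage differed by 0.04 to 0.21 when 1 library was left out.

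The replicate numbers did not pair the mice: same-numbered libraries had correlations of -0.06 to 0.14, and 2 of 5 KO libraries correlated best with their own number. With the replicate block 1271 genes were called and none of the precursor genes.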
